A study of Xenopus laevis with 5 samples.

Results

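Germ plasm is the patch of mitochondria, RNA and protein at the vegetal pole of the frog egg that is handed down to the few cells that become the germ line. Its RNAs are made in the oocyte, gathered in the Balbiani body and carried to the vegetal cortex, and in the embryo many of them are repressed, protected or translated through RNA-binding proteins. In somatic cells of the embryo several of these RNAs are known to be cleared, while the germ line keeps them.

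The germ plasm RNAs described here were chosen by symbol from 10 names (nanos1, ddx25, dazl, velo1, pgat, sybu, dnd1, grip2, trim36 and germes), with both homeologs of the allotetraploid Xenopus laevis genome, called L and S, kept as separate gene models. Of the 10 symbols 9 were found, as 13 of 45099 gene models. No model carried the symbol germes, and that gene was not analysed here. For nanos1, ddx25, dazl, pgat and dnd1 an L model alone was found, and L and S models were found for velo1, sybu, grip2 and trim36. A filter on low counts left 10 of the 13 for testing, and the 3 others (grip2.S, velo1.S and sybu.S) are given by their reads.

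The 5 RNA libraries came from whole Xenopus laevis embryos labelled stage 10.5, when gastrulation begins. The control group (3 libraries, replicates 1 to 3) had received 18 ng of a control morpholino, and the MOV10 group (2 libraries, replicates 2 and 3) the same amount of one directed against translation of the RNA helicase MOV10, a factor of the RNA-induced silencing complex. Morpholinos are antisense oligonucleotides that bind a target RNA. Per the labels, eggs came from 2 mating pairs, 3 separate embryos were taken per condition and the libraries are biological replicates. A MOV10 replicate 1 was not analysed here, and the mating pair behind each library and the strain are not stated.

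Gene reads ran from 11347400 to 13515787 per library. Multimapped reads were 5.53% in MOV10 replicate 2 and 2.02% to 2.31% in the other libraries. Unmapped reads were 29.8% in MOV10 replicate 2, 40.4% in MOV10 replicate 3 and 31.5% to 35.6% in the controls. The part of these differences in the results below was not tested. The target RNA mov10.L had 105, 33 and 71 reads in the controls and 349 and 275 in the MOV10 libraries, which checks neither the labels nor the knockdown, since the morpholino acts on translation. All 12 models of the early gastrula genes gsc, t, chrd, chrd.1, eomes, mixer and cer1, picked after their values were seen, had at least 3 reads in every library, and 10 of them fell, 0 rose and 2 did not pass (mixer.L and gsc.L). By the same test 17.7% of all tested genes fell and 24.4% rose. Reads of cer1.S, a secreted inhibitor gene of the early gastrula, were 6228, 2392 and 2786 in the controls and 76 and 98 in the MOV10 libraries. The MOV10 libraries stood apart from the controls in skeletal muscle genes. Of 17 tested muscle models all 17 rose, and the summed level of the 18 models found was 87.5, 412 and 182 CPM in control replicates 1, 2 and 3, against 15007 and 17163 CPM in MOV10 replicates 2 and 3. None of these muscle models was at 0 in all controls. Multiciliated-cell models rose in 4 of 6 (63.6 ± 23.6 CPM summed, SD, n = 3, to 255 ± 41.4, SD, n = 2), and of 8 tested neural models 1 rose and 1 fell, counts that moved between 0 and 2 when 1 library was left out. The neural models neurod1.L, neurod1.S and elavl4.S had no read in any control. Differences in true stage or in tissue makeup cannot be told apart from the morpholino in this design.

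Germ plasm RNAs divided into those that fell strongly and those that did not pass the test. Of the 10 tested models 3 fell (nanos1.L, pgat.L and velo1.L), 0 rose and 7 did not pass, by the quasi-likelihood test of edgeR, adjusted after Benjamini and Hochberg over all 20049 tested genes. At an unadjusted p under 0.05 the counts were also 3 lower and 0 higher, and DESeq2 and limma-voom gave 3 and 0 as well. Across all tested genes 17.7% were called lower and 24.4% higher (42.1% in either direction), so a share of 3 in 10 is not far above the background of lower genes. The median log2 fold change was -0.73 over the 10 models (-1.71 without MOV10 replicate 3 and -1.31 without MOV10 replicate 2) and 0.08 over all tested genes. Without control replicate 1, when grip2.L was not tested, it was -0.27 over 9 models, which had a median of -0.41 with all libraries. Both MOV10 libraries lay below all 3 controls in 4 of the 10 models, against 30.4% of all tested genes, and above all controls in 0, against 35.5%. The libraries in which these RNAs fell were those with high muscle levels and low levels of most picked early gastrula models above. The part of tissue makeup or stage in the changes was not tested.

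**Figure D1:**
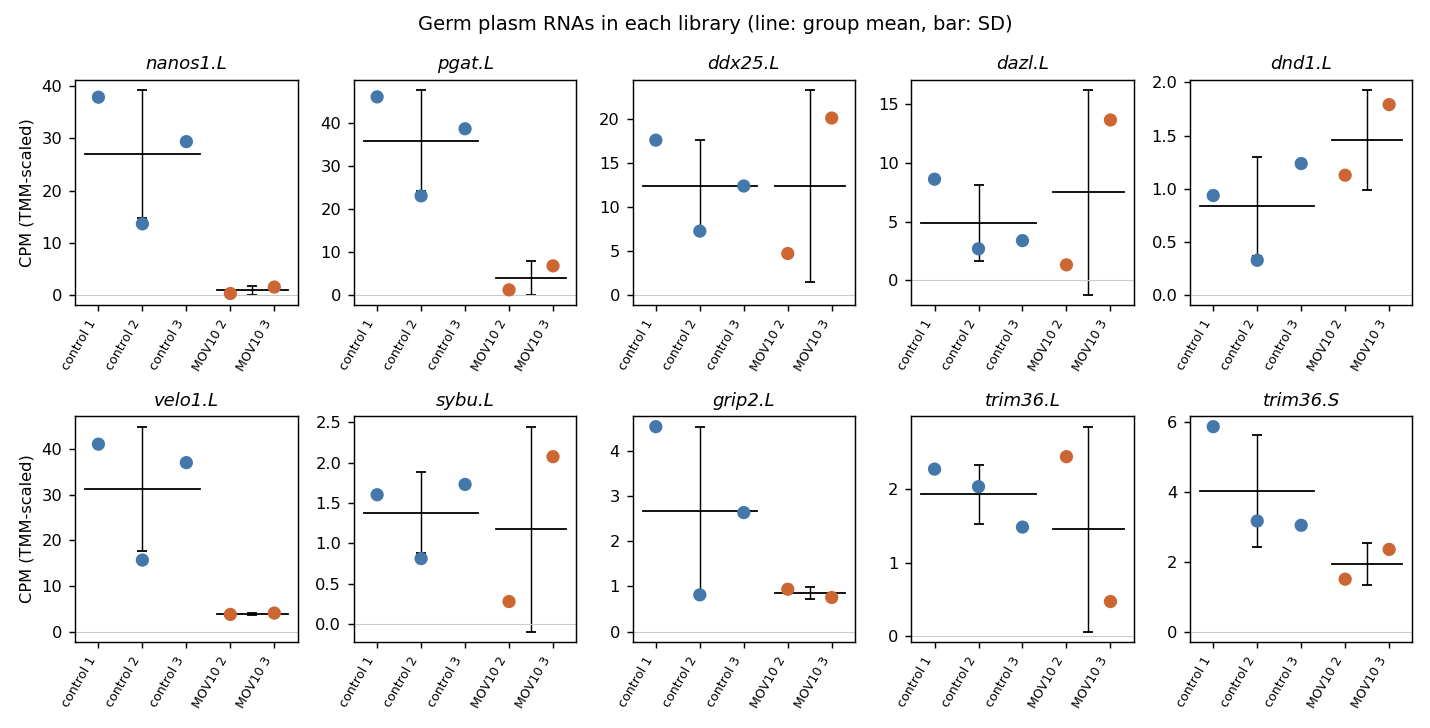
Level of each of the 10 tested germ plasm gene models in CPM (reads per 1000000 TMM-scaled gene reads, linear axis, own scale in each panel) in the 3 control (blue) and 2 MOV10 (orange) libraries, with lines at group means and bars for the SD. Both MOV10 points lie below all controls for nanos1.L, pgat.L, velo1.L and trim36.S, and the MOV10 points of ddx25.L and dazl.L lie far apart.

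The gene with the largest fall was nanos1.L (Xelaev18034293m.g), at 4860181 to 4860963 on the plus strand of chromosome 7L of the Xenla9.1 build. Nanos1 is a translational repressor that holds back somatic differentiation in the germ line. It had 566, 168 and 356 reads in control replicates 1, 2 and 3 and 4 and 17 in MOV10 replicates 2 and 3. Both MOV10 libraries were far below every control, the lowest control (13.7 CPM) standing 8.52-fold above the higher MOV10 library (1.60 CPM).

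In group means nanos1.L was at 26.9 ± 12.3 CPM (SD, n = 3) in the controls and 0.989 ± 0.868 CPM (SD, n = 2) in the MOV10 group. The log2 fold change was -4.76 ± 0.68 (SE; 27.0-fold lower, edgeR adjusted p = 0.00104). Its change was the 133rd lowest of the 20049 tested genes. Counts of this size leave a wide range in the MOV10 group: the 4 reads of replicate 2 have an exact Poisson 95% interval of 1.09 to 10.2 reads and the 17 reads of replicate 3 one of 9.90 to 27.2, both for counting error only. The fall was 70.5-fold without MOV10 replicate 3 and 16.8-fold without MOV10 replicate 2, both from fits with no replication in the MOV10 group.

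The transcript pgat.L (Xelaev18028050m.g, chromosome 5L, 138697937 to 138705651, plus strand), known as Xpat and associated with the germ plasm of Xenopus oocytes and embryos, had 688, 283 and 468 reads in the controls and 13 and 72 in MOV10 replicates 2 and 3. The groups did not overlap, but the MOV10 libraries differed from each other by more than the controls did. Replicate 3 stood 5.56-fold above replicate 2 (exact binomial 95% counting interval 3.06 to 10.9), while the highest control was 2.00-fold above the lowest.

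Mean levels of pgat.L were 35.8 ± 11.7 CPM (SD, n = 3) and 4.0 ± 3.94 CPM (SD, n = 2). The fitted change was -3.16 ± 0.65 on the log2 scale (SE; 8.94-fold lower, edgeR adjusted p = 0.00530). The fall depended on which MOV10 library was kept, at 29.4-fold without replicate 3 and 5.31-fold without replicate 2. Those fits had no replication in the MOV10 group. Antisense reads over pgat.L numbered 15 in all libraries together, 0.975% of its reads on either strand.

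The third RNA that fell was velo1.L (Xelaev18031248m.g, chromosome 6L, 60370515 to 60383681, plus strand), which encodes the Xenopus counterpart of zebrafish Bucky ball, a prion-like protein that builds the Balbiani body. It had 616, 193 and 450 reads in the controls and 40 and 43 in the MOV10 libraries. Here the MOV10 libraries stood together, replicate 3 at 1.08 times replicate 2 (95% counting interval 0.686 to 1.70).

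From 31.3 ± 13.7 CPM (SD, n = 3) velo1.L went to 3.90 ± 0.212 CPM (SD, n = 2), a log2 fold change of -3.00 ± 0.47 (SE; 8.01-fold lower, edgeR adjusted p = 0.00152). The fall lay between 6.74-fold and 10-fold when any 1 library was left out. The S model, velo1.S (Xelaev18033274m.g, chromosome 6S, 51943065 to 51950044, plus strand), had 1 sense read, in MOV10 replicate 2, and 3 antisense reads over all 5 libraries, so the reads counted for velo1 were nearly all on the L copy.

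**Figure D2:**
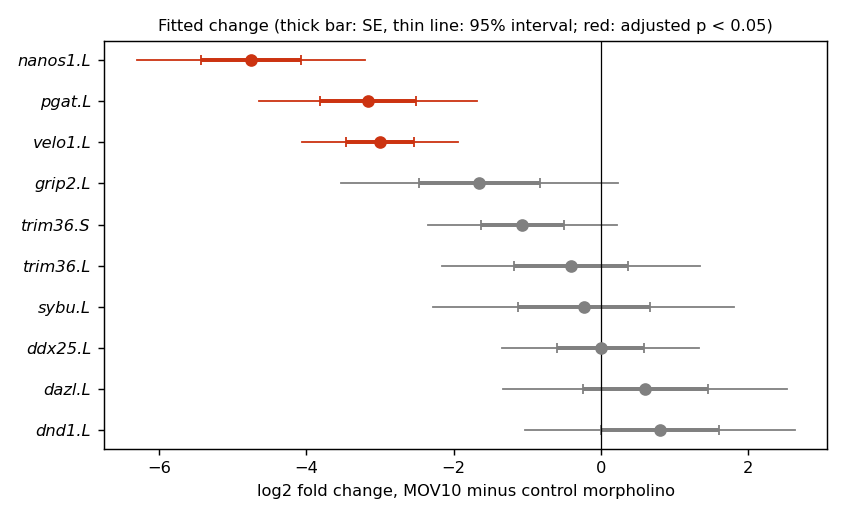
Fitted log2 fold change (MOV10 minus control morpholino, horizontal axis) of the 10 tested germ plasm gene models, with the SE as a thick bar and the 95% interval as a thin line; red marks an edgeR adjusted p under 0.05. The intervals of nanos1.L, pgat.L and velo1.L lie below 0, and the 7 others span it.

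Among the RNA-binding and RNA-unwinding proteins of the germ line, ddx25.L (Xelaev18035291m.g, chromosome 7L, 67470310 to 67507968, plus strand) had equal group means. It encodes the DEAD-box helicase DEADSouth, found in germ plasm. Its reads were 263, 89 and 150 in the controls and 50 and 213 in MOV10 replicates 2 and 3. MOV10 replicate 2 was the lowest of all 5 libraries and MOV10 replicate 3 the highest, so that the groups overlapped completely. Both means were 12.4 CPM, with an SD of 5.17 (n = 3) in the controls and 10.9 (n = 2) in the MOV10 group.

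The log2 fold change of ddx25.L was -0.0027 ± 0.59 (SE, edgeR adjusted p = 0.998). Its 95% interval ran from a 2.54-fold fall to a 2.53-fold rise, so changes of up to that size in either direction were not excluded. Between the MOV10 libraries, replicate 3 stood 4.28-fold above replicate 2 (95% counting interval 3.13 to 5.95). Alone against the controls, replicate 2 gave a log2 fold change of -1.41 and replicate 3 one of 0.68, so the direction was set by the library. Neither of these fits had replication in the MOV10 group.

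The RNA-binding protein gene dazl.L (Xelaev18031029m.g, chromosome 6L, 41981896 to 42015543, minus strand), whose product promotes translation and is needed for primordial germ cells in Xenopus, showed the widest disagreement between MOV10 libraries. Reads numbered 129, 33 and 41 in the controls and 14 and 145 in MOV10 replicates 2 and 3. Again the lowest and the highest level over the 5 libraries were both in the MOV10 group, at 1.31 and 13.7 CPM.

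For dazl.L the ratio of MOV10 replicate 3 to replicate 2 was 10.4 (95% counting interval 6.0 to 19.5), a ratio that 1.62% of all tested genes reached. The log2 fold change was 0.61 ± 0.85 (SE, edgeR adjusted p = 0.597), with values of -1.91 without MOV10 replicate 3 and 1.46 without MOV10 replicate 2, neither past the threshold. Antisense reads made up 5.24% of the reads over dazl.L, the largest antisense share among the 10 tested models.

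Dead end, encoded by dnd1.L (Xelaev18017004m.g, chromosome 3L, 19959568 to 19971020, plus strand), is an RNA-binding protein that in zebrafish shields nanos RNA from microRNAs. It was near the limit of detection, with 14, 4 and 15 reads in the controls and 12 and 19 in the MOV10 libraries. The groups overlapped, and the log2 fold change of 0.80 ± 0.80 (SE) did not pass the test (edgeR adjusted p = 0.455), with a 95% interval from a 2.04-fold fall to a 6.20-fold rise.

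Transport and scaffold genes of the vegetal cortex were measured at low depth. Syntabulin, encoded by sybu, links cargo to kinesin and in zebrafish carries the dorsal determinant along microtubules. Its L model (Xelaev18032297m.g, chromosome 6L, 136193020 to 136220639, minus strand) had 24, 10 and 21 reads in the controls and 3 and 22 in MOV10 replicates 2 and 3. As with ddx25.L, MOV10 replicate 2 was the lowest and replicate 3 the highest of the 5 libraries, 7.37-fold apart (95% counting interval 2.21 to 38.4). The log2 fold change was -0.23 ± 0.90 (SE, edgeR adjusted p = 0.858), and it was 0.57 without MOV10 replicate 2.

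For the untested sybu.S (Xelaev18033953m.g, chromosome 6S, 112005879 to 112038814, minus strand) there were 0, 6 and 25 reads in control replicates 1, 2 and 3 and 7 and 5 in the MOV10 libraries. The 3 controls differed for this S copy in a way that the L copy did not, since control replicate 1 had 24 reads of the L copy and none of the S copy. At 0 reads a level of up to 0.222 CPM of that library's gene reads is allowed by a floor of 3 counts.

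The PDZ-domain adaptor gene grip2 acts in primordial germ cell development in Xenopus. Its L model (Xelaev18023956m.g, chromosome 4L, 127047996 to 127172485, plus strand) had 68, 10 and 32 reads in the controls and 10 and 8 in the MOV10 libraries. Control replicate 2 lay within the MOV10 range, while the other controls lay above it. The fitted change was -1.65 ± 0.82 on the log2 scale (SE, edgeR adjusted p = 0.140), and without control replicate 2 it was -2.08 and passed the threshold (edgeR adjusted p = 0.0472; adjusted p from 0.0472 to 0.307 over 12 alternatives).

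The S model, grip2.S (Xelaev18025874m.g, chromosome 4S, 105421384 to 105535290, plus strand), had 4, 3 and 2 reads in the controls and 0 in both MOV10 libraries. The lower exact 95% counting limit of its ratio of control to MOV10 level was 1.07, and grip2.S was not tested. That limit comes from the summed reads of each group and leaves out variation between libraries. For dazl.L, which did not pass the test, the same interval was 0.557 to 0.853.

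Both copies of trim36, which encodes a ubiquitin ligase needed for the vegetal microtubule array and the dorsal axis in Xenopus, were tested. The S copy (Xelaev18010769m.g, chromosome 1S, 144349587 to 144382376, plus strand) had 88, 39 and 37 reads in the controls and 16 and 25 in the MOV10 libraries. All controls were above both MOV10 libraries, and the log2 fold change of -1.06 ± 0.56 (SE) did not pass the test (edgeR adjusted p = 0.160).

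The L copy, trim36.L (Xelaev18007996m.g, chromosome 1L, 173886303 to 173916068, plus strand), had 34, 25 and 18 reads in the controls and 26 and 5 in MOV10 replicates 2 and 3. Here MOV10 replicate 2 was the highest of the 5 libraries in CPM and replicate 3 the lowest, the reverse of the order in ddx25.L, dazl.L and sybu.L. The log2 fold change was -0.41 ± 0.77 (SE, edgeR adjusted p = 0.703), -2.02 without MOV10 replicate 2 and 0.32 without MOV10 replicate 3. The difference between the changes of the L and S copies was not tested.

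Many of the members shared an order of the control libraries, and correlation between members was not tested. In control replicate 3, trim36.L and trim36.S were lowest and dnd1.L and sybu.L highest of the controls, unlike the members named next. Control replicate 1 was the highest and control replicate 2 the lowest of the controls in 6 of the 10 tested models (nanos1.L, pgat.L, velo1.L, ddx25.L, dazl.L and grip2.L), an order found in 16.2% of all tested genes. Control replicate 2 was the lowest in 8 of the 10, against 32.9% of all tested genes. In the MOV10 group replicate 3 stood above replicate 2 in 8 of the 10 models, against 50% of all tested genes. These orders were found in some of the other lists. Among other germ plasm and germ granule genes control replicate 1 was highest and 2 lowest in 4 of 21 models, and MOV10 replicate 3 above replicate 2 in 13 of 21. For vegetal maternal RNAs the counts were 3 and 6 of 15, and for RNA localization genes 9 and 13 of 33. MOV10 replicate 3 was above replicate 2 in 3 of 8 neural and 1 of 6 multiciliated-cell models. For primordial germ cell migration genes control replicate 1 was highest and 2 lowest in 6 of 11 models, and MOV10 replicate 3 was above replicate 2 in 8 of 11. Among oocyte and egg transcripts control replicate 2 was lowest in 13 of 20 models and MOV10 replicate 3 above replicate 2 in 14 of 20, and the latter order held for 17 of 17 muscle models. Control replicate 1 was highest and 2 lowest in 6 of 20 oocyte, 2 of 17 muscle, 2 of 8 neural and 0 of 6 multiciliated-cell models. Control replicate 2 was lowest in 11 of 21 other germ plasm, 6 of 15 vegetal, 16 of 33 RNA localization and 7 of 11 migration models. For muscle, neural and multiciliated-cell models that count was 3 of 17, 3 of 8 and 2 of 6. Ratios of MOV10 replicate 3 to replicate 2 were 4.27 to 10.4 for nanos1.L, ddx25.L, pgat.L, sybu.L and dazl.L. Of all tested genes 1.62% to 3.48% had ratios at least as high. The ratio went the other way for trim36.L, at 0.193, and for grip2.L, at 0.804. A ratio at least as high as that of trim36.L was found in 96.6% of all tested genes. These shares were not matched for read depth. Counting error alone left wide intervals for sybu.L (2.21 to 38.4) and nanos1.L (1.39 to 17.4). In control replicates 1, 2 and 3 the summed level of the 13 germ plasm models was 167, 70.2 and 133 CPM, and in MOV10 replicates 2 and 3 it was 18.4 and 54.1 CPM. Among the controls the library lowest in germ plasm RNAs, replicate 2, was the one highest in the summed muscle genes (412 CPM), and the part of that difference in these values was not tested. In the MOV10 group replicate 3 was above replicate 2 in both sums, with 17163 against 15007 CPM for the muscle genes. In whole embryos, fewer germ plasm-bearing cells and less of an RNA per cell cannot be told apart.

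**Figure D3:**
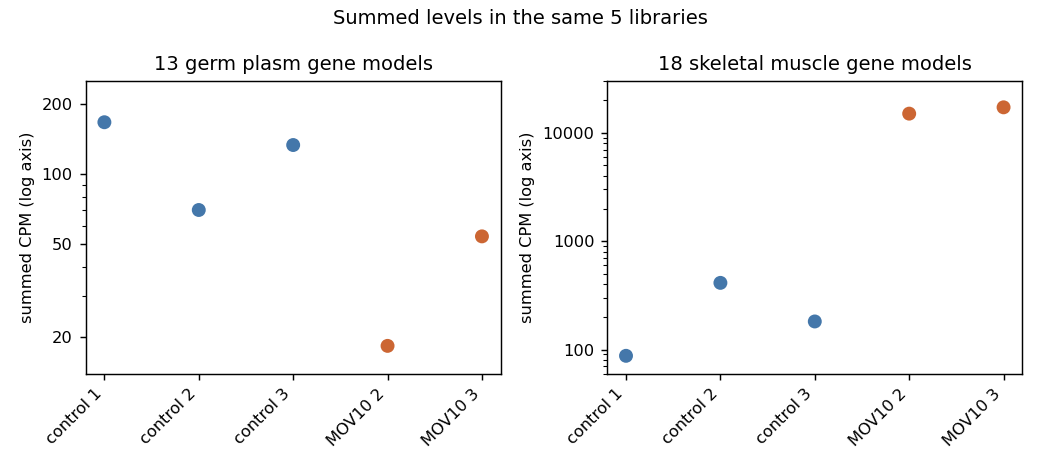
Summed CPM (log axis) of the 13 germ plasm gene models (left) and of 18 skeletal muscle gene models (right) in the same 5 libraries. Germ plasm RNAs ranged from 167 CPM in control replicate 1 to 18.4 CPM in MOV10 replicate 2, and muscle genes from 87.5 to 17163 CPM.

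Because the summed amount differed so much between libraries of 1 group, the reads of each member were also set against those of ddx25.L in the same library, a ratio that does not depend on library scaling. The choice of ddx25.L was made after its values were seen, and the ratios are a description. Differences in gene length act on such a ratio equally in every library. For nanos1.L there were 2.15, 1.89 and 2.37 reads per ddx25.L read in control replicates 1, 2 and 3, and 0.0800 and 0.0798 in MOV10 replicates 2 and 3. The ratio was thus nearly the same in both MOV10 libraries, although each RNA differed more than 4-fold between them. The counting intervals for MOV10 replicates 2 and 3, 0.0210 to 0.218 and 0.0456 to 0.131, did not reach those of the controls, the lowest of which began at 1.45.

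The ratio of pgat.L to ddx25.L was 2.62, 3.18 and 3.12 in the controls and 0.260 and 0.338 in the MOV10 libraries. This ratio, too, was alike within each group and apart between them. Against ddx25.L, velo1.L had 2.34, 2.17 and 3.0 reads in the controls and 0.80 and 0.202 in MOV10 replicates 2 and 3. Both ratios lay below those of the controls, but they differed between the MOV10 libraries, whose 95% counting intervals (0.514 to 1.24 and 0.142 to 0.281) did not overlap. The ratio of dazl.L to ddx25.L was 0.490, 0.371 and 0.273 in the controls and 0.280 and 0.681 in MOV10 replicates 2 and 3, so the groups overlapped. Here too the intervals of the MOV10 libraries (0.143 to 0.514 and 0.547 to 0.845) lay apart, as they did for trim36.L and grip2.L, whose ratios were higher in MOV10 replicate 2. Reads of velo1.L per nanos1.L read were 1.09, 1.15 and 1.26 in the controls and 10 and 2.53 in the MOV10 libraries, both of the latter above all controls. The 95% counting interval was 3.61 to 38.5 in MOV10 replicate 2, and in MOV10 replicate 3 it was 1.41 to 4.73, which reached the controls' intervals (up to 1.46). The fitted 95% intervals of the falls overlapped, at 9.21-fold to 79.2-fold for nanos1.L and 3.83-fold to 16.7-fold for velo1.L, and the difference between them was not tested.

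**Figure D4:**
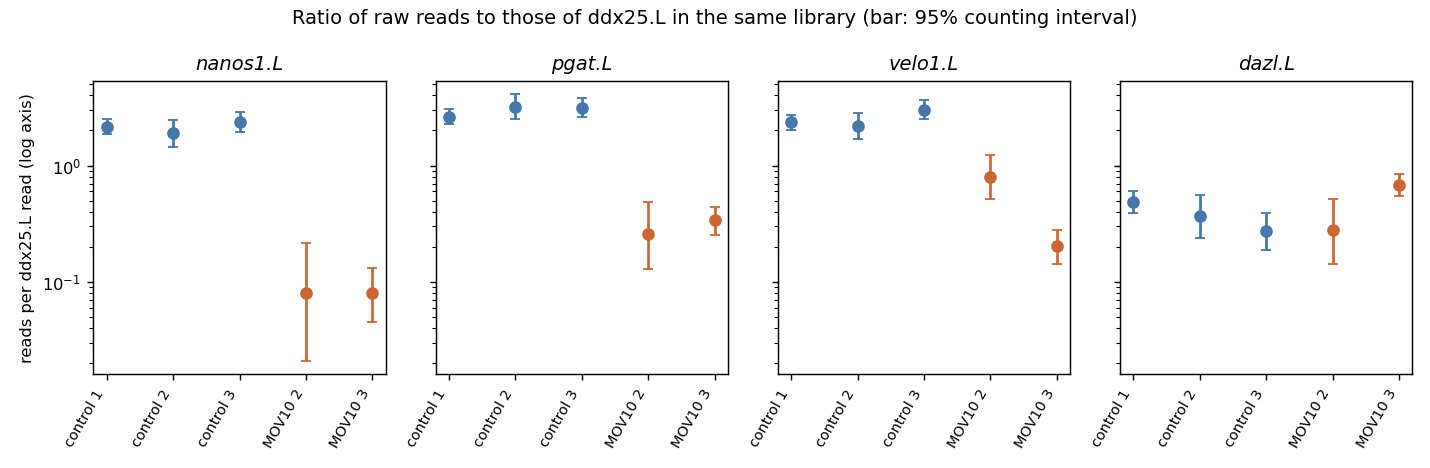
Raw reads of nanos1.L, pgat.L, velo1.L and dazl.L per ddx25.L read in each library (log axis), with exact binomial 95% counting intervals; blue marks controls and orange marks MOV10 libraries. The nanos1.L ratio was 1.89 to 2.37 in the controls and 0.0798 to 0.0800 in the MOV10 libraries, while the dazl.L ratios of the groups overlap.

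Other germ plasm and germ granule genes, from a list of Piwi-pathway, Tudor-domain and germ plasm genes, were called lower in 9 models. Of 29 models found 21 were tested, of which 9 fell, 1 rose and 11 did not pass, 42.9% lower against 17.7% of all tested genes, with a median log2 fold change of -0.89. Only 5 fell without control replicate 3 and 4 without MOV10 replicate 2. The mitochondrial piRNA-pathway nuclease gene pld6.S was 4.26-fold lower, from 98.3 ± 10.4 CPM (SD, n = 3) to 23.1 ± 0.925 CPM (SD, n = 2; edgeR adjusted p = 2.73e-04). The Tudor-domain helicase gene tdrd9.L fell 6.68-fold, and rbpms2.L, known as Hermes and bound to germ plasm RNAs in Xenopus, fell 3.93-fold. The S copy, rbpms2.S, was 1.85-fold lower and did not pass (edgeR adjusted p = 0.443). The lipid droplet gene plin2.S, the vegetal RNA fatvg, fell 2.75-fold, and its call ended without MOV10 replicate 2 (2.16-fold, edgeR adjusted p = 0.0617). The only gene of the list that rose, the piRNA methyltransferase gene henmt1.L, had 5, 10 and 8 reads in the controls and 49 and 23 in the MOV10 libraries (5.59-fold higher, edgeR adjusted p = 0.0202). The call for henmt1.L ended with control replicate 1 left out (edgeR adjusted p = 0.0536) or MOV10 replicate 2 (3.56-fold, edgeR adjusted p = 0.233). Without control replicate 3, 2 genes of the list rose.

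Models of a list drawn up for vegetal maternal RNAs that are not germ plasm markers also fell in part. Of 15 tested models 6 fell, 0 rose and 9 did not pass (40% lower), with a median log2 fold change of -0.75, and 1 rose without control replicate 3. Of all tested genes 17.7% were lower and 24.4% higher. For the fatty acyl-CoA ligase gene acsl3.L the fall was 11.4-fold, from 39.2 ± 5.52 CPM (SD, n = 3) to 3.43 ± 1.78 CPM (SD, n = 2; edgeR adjusted p = 3.39e-04). Without MOV10 replicate 2 the fall of acsl3.L was 18.1-fold. The maternal Wnt ligand gene wnt11b.L fell 3.36-fold, the homeobox gene otx1.S 5.04-fold and wnt11.S, a gene apart from wnt11b, 7.39-fold. Whether the wnt11 models belong with vegetal maternal RNAs was not checked. The other copies, otx1.L and wnt11.L, did not pass (edgeR adjusted p = 0.0595 and 0.602). The T-box determinant vegt, a vegetal RNA of the same oocyte cortex, had 409, 276 and 464 reads of its L copy in the controls and 224 and 229 in the MOV10 libraries, a log2 fold change of -0.46 ± 0.29 (SE) that did not pass the test (edgeR adjusted p = 0.236).

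Genes for proteins that localize or translationally control such RNAs were divided, with 9 of 33 tested models lower, 2 higher and 22 not past the test (27.3% lower, median log2 fold change -0.30). The higher share was 6.06%, and over all tested genes 17.7% were lower and 24.4% higher. The gene for the kinesin-II subunit kif3a.L, a motor of vegetal RNA transport, was lowered 6.05-fold, from 45.9 ± 3.17 to 7.57 ± 1.02 CPM (SD, n = 3 and n = 2; edgeR adjusted p = 2.23e-04). Its S copy went the other way, with 12, 18 and 19 reads in the controls and 27 and 28 in the MOV10 libraries. That rise of kif3a.S, 2.03-fold, did not pass (edgeR adjusted p = 0.209). The RNA-binding protein genes hnrnpab.L and hnrnpab.S fell 2.37-fold and 2.17-fold. A maternal translational regulator, zar1.S, had 404, 235 and 361 reads in the controls and 14 and 0 in the MOV10 libraries. The poly(A)-binding protein gene pabpc4.L rose 2.46-fold and igf2bp3.S, a copy of the Vg1 RNA-binding protein gene, 2.08-fold, a call that ended without MOV10 replicate 3 (1.83-fold). The other copy, igf2bp3.L, was 1.25-fold lower and did not pass (edgeR adjusted p = 0.348).

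Of 11 tested models for primordial germ cell migration and guidance 1 fell (rac1.S, a small GTPase gene, 2.52-fold), 1 rose (kitlg.S, the Kit ligand gene) and 9 did not pass. Each share was 9.09%, below the 17.7% lower and 24.4% higher of all tested genes. The other copies, rac1.L and kitlg.L, did not pass (edgeR adjusted p = 0.0619 and 0.813). Counts of kitlg.S were 1, 3 and 4 in the controls and 16 and 28 in the MOV10 libraries, and the gene lost its call when MOV10 replicate 2 was left out (edgeR adjusted p = 0.0631) or MOV10 replicate 3 (edgeR adjusted p = 0.228). Without MOV10 replicate 2 there were 2 lower models, and without control replicate 1 there were 2 higher ones. The list of oocyte and egg transcripts, to which velo1 also belongs, had 15 of 20 tested models lower, 0 higher and 5 not past the test (75% lower, median log2 fold change -1.83), and 1 rose without MOV10 replicate 2. Over all tested genes 17.7% were lower and 24.4% higher. The smallest adjusted p-values of the oocyte and egg list belonged to h1foo.L, h1foo.S, ccnb1.2.S and zp3.S. The lists were chosen with earlier results of these data known and are described by their counts, and all were measured in the libraries with the raised muscle genes.

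**Figure D5:**
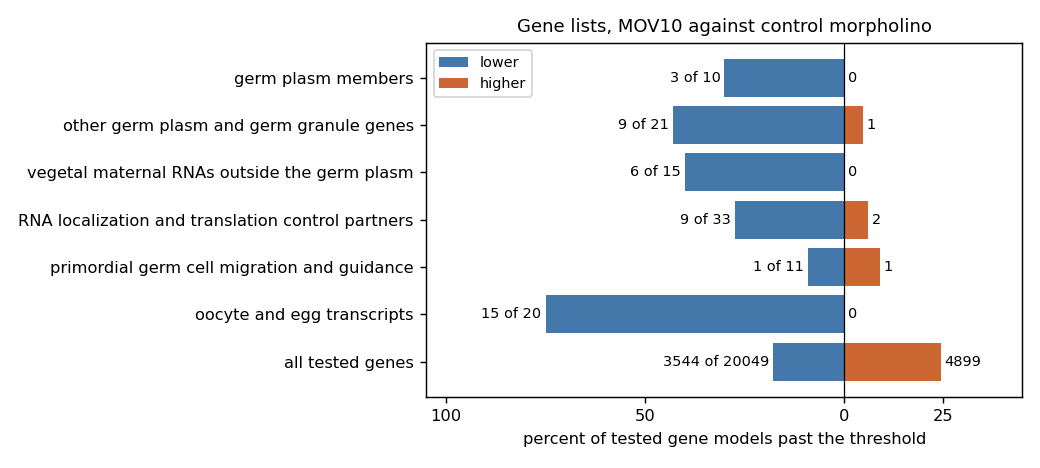
Percent of tested gene models called lower (blue, to the left) and higher (orange, to the right) at an edgeR adjusted p under 0.05 in the germ plasm members, the 5 other lists and all tested genes, with counts beside the bars. The germ plasm members have 3 of 10 lower, the oocyte and egg list 15 of 20 and all tested genes 17.7%.

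Genes whose profile was most like that of pgat.L, the tested member with the most reads, were sought among 9261 named models by the distance between log2 CPM profiles over the 5 libraries, each centred on its own mean. The nearest were mgc69520.L, the hyaluronan synthase gene has1.S, the insulin receptor-related gene insrr.L, tsku.S (Tsukushi, a secreted leucine-rich repeat protein) and the zona pellucida gene zp3.S, at distances of 0.876 to 0.989 log2 units. Their falls were 9.25-fold to 15.2-fold, and 15.9-fold to 31.3-fold without MOV10 replicate 3. Among the germ plasm models nanos1.L, at 1.42, and velo1.L, at 1.76, were nearest to pgat.L, and dnd1.L, at 4.88, was farthest. Over all tested genes nanos1.L was only the 126th nearest to pgat.L and velo1.L the 328th. With 5 libraries in 2 groups, this likeness rests mainly on the difference between the groups.

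In the authors' deposited table, 10 of the 13 germ plasm models are listed among 19421 genes, and 3 have a false discovery rate below 0.05, namely nanos1.L at 8.07e-04, velo1.L at 0.00131 and pgat.L at 0.00903. These rates may come from a test against a 1.5-fold change, unlike the main test here. For trim36.L the authors' rate was 0.795, against an edgeR adjusted p of 0.703 in the main test and 0.796 in a test against a 1.5-fold change. For velo1.L the latter values were 0.00152 and 0.00247. The authors' deposited table gives human symbols, under which nanos1.L appears as NANOS2 and ddx25.L as DDX19A, and it holds no symbol for pgat.L and velo1.L. A search of that table by the symbol NANOS1 or DDX25 would therefore not find these frog genes.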

How the data were processed

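The authors deposited raw counts per gene from stranded mRNA libraries of 5 samples in a STAR layout with 3 strand settings, and the reverse-strand counts were used. Per the submitters' processing notes the tools included edgeR 3.15.2, STAR 2.5.2a, FastQC 0.11.4 and bcl2fastq 2.17.1.14, and per the file headers and legends the gene models were Xenbase models on Xenla9.1. The 4 summary lines (unmapped, multimapped, no feature and ambiguous) held 89.6% to 92.5% of the reads of each library and stayed out of library sizes. Gene reads were therefore 7.51% to 10.4% of 120128621 to 156177877 reads, and reads that map to several places, such as identical stretches of L and S copies, were not counted. Reads in no feature were the largest share, at 52.0%, 56.1% and 54.1% in control replicates 1, 2 and 3. In MOV10 replicates 2 and 3 they were 57.1% and 48.6%. The authors also deposited log2 CPM and log2 fold changes, p-values with false discovery rates, and a signed fold score, of which only the values named as the authors' were used.

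Counts were filtered with filterByExpr (minimum count 10), scaled by TMM and tested two-sided with edgeR 4.0.16 (quasi-likelihood, group only, R 4.3.3), with Benjamini-Hochberg adjustment over 20049 genes and a threshold of 0.05. Values in CPM are per 1000000 TMM-scaled gene reads. Counting intervals are exact (Poisson for counts, binomial for ratios), and with the floor of 3 counts they cover counting error only. Alternatives were DESeq2 1.42.0, limma 3.58.1 (voom), other scaling, filters and strand columns, a replicate block and each library left out.

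Members and lists were chosen with earlier results of these data known. Beside all members, the text names up to 4 genes past the threshold per list and direction, by smallest adjusted p, and the 5 genes nearest to pgat.L with a mean log2 CPM of at least 2. Beyond this rule, vegt.L and genes of early gastrulae were added after their values were seen. Coordinates are 1-based on Xenla9.1.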

Additional observations from a re-analysis of the deposited data

How the results depend on the processing

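Across the 15 alternatives nanos1.L, pgat.L and velo1.L fell and passed the threshold each time (highest adjusted p 0.00898, 0.0199 and 0.00841, with DESeq2, edgeR and limma-voom included), and 0 members rose. Members lower numbered 3 to 4 when 1 library was left out, the fourth being grip2.L. Over all tested genes 3544 were lower and 4899 higher, against 2654 to 3012 and 3718 to 4405 with 1 library left out and 2424 to 4363 and 3982 to 5318 otherwise. Scaling by total gene counts shifted the median log2 fold change of all genes by -0.20 and gave 4363 lower and 4351 higher. Of 240 recounts over the other lists 198 stayed within 1.5 times or remained at 0, and 42 moved. Counts of 0 in both settings thus entered the 198. The setting without control replicate 1 is the same fit as replicates 2 and 3 without a block, so its recounts entered again under that name. Where 1 MOV10 library was left out, the other was assumed to vary like the controls.

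None of the reversed directions passed the threshold, and the cause was not tested. The log2 fold change of ddx25.L was 0.0360 with DESeq2 size factors, 0.0622 with a minimum count of 30, 0.0376 with the DESeq2 test, 0.0127 with counts without strand and 0.0691 with the replicate block. It was 0.34 without control replicate 1, the same 4 libraries as replicates 2 and 3 without a block, a setting added after the data were seen, and with 1 library left out it ran from -1.41 to 0.68 (without MOV10 replicates 3 and 2). For dazl.L it was -0.0490 with limma-voom and ran from -1.91 to 1.46 without MOV10 replicate 3 or 2. In the same way sybu.L ran from -2.27 to 0.57, and trim36.L from -2.02 without MOV10 replicate 2 to 0.32 without MOV10 replicate 3. Deviations of same-numbered libraries correlated at 0.0712 and 0.0200 over all tested genes, and the numbers were not taken as a pairing in the main test. The deviations of 2 MOV10 libraries from their mean mirror each other, so these correlations say little about a pairing. Pairing among the members alone was not tested. Replicate 2 was the lowest control in 8 of the 10 tested members. MOV10 replicate 3 stood above MOV10 replicate 2 in 8 of the 10 as well. With a replicate block over replicates 2 and 3, 3 members were lower and 0 higher, as were 2903 and 4229 of 19345 genes, against 2846 and 4306 without the block. The edgeR adjusted p of nanos1.L, pgat.L and velo1.L was 7.25e-05, 4.03e-04 and 8.28e-04 with the block. In the same 4 libraries without it the values were 0.00290, 0.0136 and 0.00442. With 4 libraries the blocked fit leaves little to measure the variation of a single gene, so its p-values rest mainly on variation pooled over genes. Whether the smaller values reflect a pairing was not tested. Reads were few for velo1.S, dnd1.L, sybu, grip2 and trim36, with 0 to 88 per library.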
